A study of Homo sapiens with 12 samples.

Results

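The genes described here carry glucose into the cell and through glycolysis and the pentose phosphate pathway. They are 36 genes chosen by symbol from the 23705 genes of the count table. They comprise 5 glucose transporters, 6 enzymes of upper glycolysis, 3 PFKFB enzymes, 10 enzymes of lower glycolysis, 4 lactate genes, 6 enzymes of the pentose phosphate pathway and 2 phosphoglucomutases. All 36 passed the filter on low counts, which left 13522 genes, and their lowest count in any library was 8, in *SLC2A10*. The RNA came from A375 cells, an established human metastatic melanoma line from skin at passages 30-32, grown in DMEM with 10% FBS. Every condition contained the DMSO in which both compounds were dissolved. Treatment lasted 24 h, with vehicle alone, with rosiglitazone (RGZ) at 5 μM, with T0070907 at 2 μM, or with the combination of both at these doses. RGZ is an agonist and T0070907 an antagonist of the nuclear receptor PPARγ, and the combination served to tell PPARγ-dependent from other responses to RGZ. There were 12 libraries, 1 for each condition in each of 3 independent experiments, and each pooled the RNA of technical replicates within its experiment. A375 is a single line, so the p-values measure the spread between its libraries, across or within experiments, and not between melanomas.

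Glucose enters through transporters of the SLC2A family and is trapped by hexokinases as a phosphate ester. Glycolysis then splits it and harvests ATP and pyruvate, and lactate dehydrogenase converts the pyruvate to lactate, which leaves through monocarboxylate transporters. The PFKFB enzymes make and remove the sugar bisphosphate that activates phosphofructokinase, the committed step. A branch from the first phosphate ester, the pentose phosphate pathway, provides NADPH and ribose, and phosphoglucomutases link the same ester to glycogen. Many tumours, melanoma among them, ferment glucose to lactate even in oxygen, and PPARγ is best known for its control of lipid and glucose metabolism in fat tissue.

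Total counts ranged from 8319455 to 11375227 per library. The 36 genes took 2.41 to 2.79% of all counts, and *GAPDH* alone took 0.639 to 0.808%. Levels are given as CPM, counts scaled to a common library size, with edgeR's TMM correction for library composition, and a floor of 3 counts corresponded to 0.258 to 0.371 CPM. Genes of the pigmented melanocyte were weakly represented: 4 of 9 melanocyte lineage markers were above the floor in all libraries and *PMEL*, *MLANA*, *TYR*, *TYRP1* and *DCT* were not, whereas 4 of 4 markers of dedifferentiated melanoma were. Of the markers of other cell types, 1 of 4 for keratinocytes and epithelium, 3 of 5 for fibroblasts and 1 of 3 for leukocytes were above the floor in all libraries, whereas *KRT5*, *EPCAM*, *CDH1*, *COL1A2*, *DCN*, *PTPRC* and *CD3E* were not. The summed level of the dedifferentiation markers was 671 to 831 CPM in vehicle and 492 to 671 CPM in RGZ, that of the melanocyte markers 291 to 532 CPM in vehicle and 239 to 458 CPM in RGZ, that of the fibroblast markers 24.0 to 53.4 CPM in vehicle and 16.1 to 34.8 CPM in RGZ, and that of the keratinocyte markers 14.6 to 33.5 CPM in vehicle and 6.62 to 16.8 CPM in RGZ. The leukocyte markers summed to at most 1.39 CPM in any library. The part of these lists in the results was not tested. Experiments differed more than conditions, with the first principal component holding 40.2% of the variance and the experiment accounting for 94.3% of it.

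The combination library of experiment 1 stood apart. Its deviations from the mean of its condition correlated across genes at 0.0793 to 0.194 with those of the other libraries of experiment 1, whereas all other pairs of libraries from the same experiment correlated at 0.381 to 0.758. It also held the highest level of any library for *GAPDH* (8411 CPM), *ENO1* (5431 CPM), *PKM* (4232 CPM), *ALDOA* (2275 CPM), *TKT* (1210 CPM), *TPI1* (835 CPM) and *TALDO1* (172 CPM). On the first component, which followed the experiment, it lay at -4.88, within the range of the other libraries of experiment 1 (-9.65 to 3.37) and outside those of experiments 2 and 3. On the second component, of which the condition accounted for 93.1%, it lay at -3.44, between the other combination libraries (-9.70 and 7.82), within the range of vehicle (-10.98 to -1.57) and away from RGZ (25.9 to 31.3) and T0070907 (-25.8 to -15.6). It was set apart on the fourth component, at 25.8 against -9.07 to 9.47 in the other libraries. Fold changes of the combination are therefore given with and without this library. Each comparison was fitted without and with the experiment as a replicate block, a term that compares libraries within their experiment, and a gene was called at a Benjamini-Hochberg adjusted p-value under 0.05 over all genes tested.

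The start sites of the genes that the results turn on are shown first, since PPARγ is a DNA-binding receptor and the regions bear on which of these genes carry its recognition letters. Each sequence is the reference sequence from upstream to shortly downstream of a RefSeq gene start, 300 bases in all, in GRCh38.p14. It runs 5′ to 3′ on the strand of the gene, in lower case. Capitals mark AGGTCA, the motif that nuclear receptors recognise, and ACGTG, a form of the core of the hypoxia response element, on either strand. *PGM1* is shown as the gene of the 36 with the largest fold change in RGZ against vehicle, *SLC2A1* as the main glucose transporter, *SLC2A6* as a transporter called against T0070907 alone, and *LDHA* for its capitals.
PGM1 (chr1:63593161-63593460, strand plus): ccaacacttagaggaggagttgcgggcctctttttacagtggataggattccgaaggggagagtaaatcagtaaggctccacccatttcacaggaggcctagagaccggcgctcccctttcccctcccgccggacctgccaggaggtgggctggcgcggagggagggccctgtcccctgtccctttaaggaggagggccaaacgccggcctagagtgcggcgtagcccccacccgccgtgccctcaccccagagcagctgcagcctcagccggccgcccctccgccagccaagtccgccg
SLC2A1 (chr1:42958819-42959118, strand minus): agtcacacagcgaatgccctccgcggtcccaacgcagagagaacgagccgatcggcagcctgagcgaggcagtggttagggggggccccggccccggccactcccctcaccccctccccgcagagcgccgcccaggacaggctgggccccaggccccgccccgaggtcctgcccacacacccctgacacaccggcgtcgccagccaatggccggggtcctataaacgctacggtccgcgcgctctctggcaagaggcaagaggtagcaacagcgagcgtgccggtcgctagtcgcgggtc
SLC2A6 (chr9:133479050-133479349, strand minus): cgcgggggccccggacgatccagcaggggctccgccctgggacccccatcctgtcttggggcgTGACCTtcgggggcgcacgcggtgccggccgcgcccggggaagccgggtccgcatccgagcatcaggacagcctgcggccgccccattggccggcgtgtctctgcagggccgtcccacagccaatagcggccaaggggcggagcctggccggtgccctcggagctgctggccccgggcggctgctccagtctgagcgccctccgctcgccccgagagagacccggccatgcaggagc
LDHA (chr11:18394313-18394612, strand plus): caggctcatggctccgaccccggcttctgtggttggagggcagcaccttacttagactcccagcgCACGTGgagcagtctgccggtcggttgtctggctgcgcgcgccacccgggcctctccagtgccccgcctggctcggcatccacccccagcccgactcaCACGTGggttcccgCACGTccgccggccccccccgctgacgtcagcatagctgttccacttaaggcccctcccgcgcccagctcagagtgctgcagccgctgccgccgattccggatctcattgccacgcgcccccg

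The windows of *PGM1* and *SLC2A1* held neither AGGTCA nor ACGTG, and that of *SLC2A6* held 1 AGGTCA. That of *LDHA* held ACGTG at 3 places, 2 of them in CACGTG, which reads the same on both strands. Such windows were found for 33 of the 36 genes. AGGTCA, searched on both strands, was present in 5 of the 33 (*SLC2A6*, *HK1*, *ALDOC*, *TPI1* and *RPE*) and in 13.8% of 35116 RefSeq windows of the same length. The tandem form, AGGTCA repeated after 1 base of any kind, to which PPARγ binds with its partner RXR, was present in 0 of the 33 and in 0.0228% of all windows. At 8 of 35116 windows, these exact letters are too rare for their absence from 33 to be informative. ACGTG was present in 11 of the 33 (*SLC2A10*, *HK2*, *GPI*, *ALDOA*, *ALDOC*, *GAPDH*, *PGK1*, *ENO2*, *LDHA*, *PGD* and *PGM2*) and in 21.4% of all windows. CACGTG, which contains ACGTG, was present in 4 of the 33 (*ALDOC*, *GAPDH*, *LDHA* and *PGM2*) and in 7.26% of all windows. A match describes the letters of these windows only. Other forms of these motifs, and sites farther from the start, were not searched.

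In vehicle, the most abundant of the 36 genes were *GAPDH*, *ENO1* and *PKM* of lower glycolysis, and the least abundant were the glucose transporters *SLC2A12* and *SLC2A10*. Levels were compared between genes as CPM per kb of the longest transcript annotated in GENCODE 29. *GAPDH*, which yields the first NADH of the pathway, led with 3641 CPM per kb and was the highest of all tested genes with a length. It was followed by *ENO1* (enolase) at 1810, *PKM* (pyruvate kinase) at 1269, *LDHB* at 861, *ALDOA* (aldolase) at 695 and *LDHA* at 468 CPM per kb. The pentose phosphate enzymes *TKT* (transketolase), *TALDO1* (transaldolase) and *PGD* (phosphogluconate dehydrogenase) stood at 128, 99.1 and 95.8 CPM per kb. For *TKT*, *PFKL* and *PGLS* the longest transcript raised the length, and the longest protein-coding transcript gave 311 in place of 128, 22.8 in place of 11.1 and 66.6 in place of 42.8 CPM per kb. The lowest levels were those of *SLC2A12* at 0.673 and *SLC2A10* at 0.373 CPM per kb, with 14 to 43 and 8 to 18 counts per library.

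**Figure D1:**
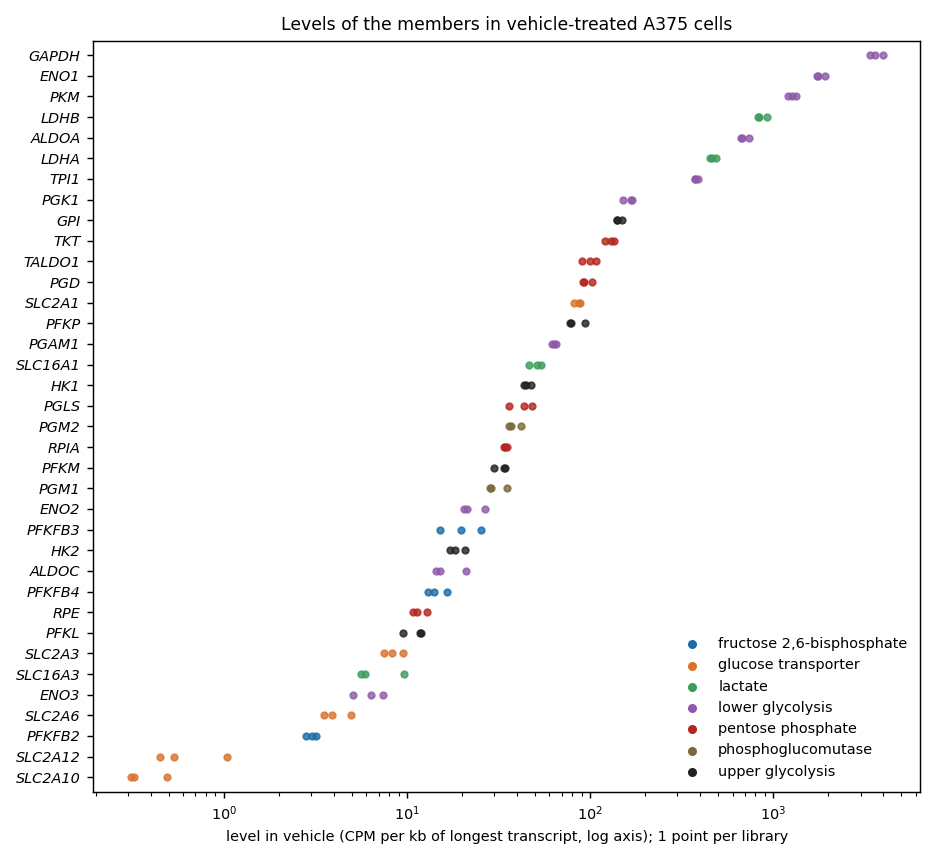
Level of each of the 36 genes in the 3 vehicle libraries, in CPM per kb of the longest transcript on a log axis, with 1 point per library and colours for the role of the gene. *GAPDH* is highest at a mean of 3641 and *SLC2A10* lowest at a mean of 0.373 CPM per kb.

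For most steps a single isoenzyme held most of the RNA. Shares were computed from CPM per kb in each library and are given as mean ± SD over the 3 vehicle libraries, without a test. *SLC2A1* held 86.2% ± 2.31 of the RNA of the 5 glucose transporters and *SLC2A3*, the high-affinity neuronal type, 8.54% ± 1.10. *HK1* held 70.7% ± 2.17 of the RNA of *HK1* and *HK2* together, and *HK2*, the inducible form, 29.3%. Among the phosphofructokinases, the platelet type *PFKP* held 65.5% ± 3.48, the muscle type *PFKM* 25.9% ± 3.32 and the liver type *PFKL* 8.69% ± 0.891. With protein-coding lengths, *PFKL* came to 15.98%. *ALDOA* held 97.6% ± 0.370 of aldolase RNA and *ENO1* 98.4% ± 0.121 of enolase RNA. In lactate dehydrogenase, *LDHB*, the form of oxidative tissues, exceeded *LDHA*, the form of lactate-producing tissues, with 64.8% ± 0.781 against 35.2%. Of the lactate transporters, *SLC16A1* held 87.8% ± 4.26 and the export type *SLC16A3* 12.2% ± 4.26.

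RGZ against vehicle asked what PPARγ activation changes. RGZ raised *PGM1*, an enzyme that links glycolysis to glycogen, by a factor of 1.60, and it was the only gene of the 36 that edgeR called without the block. DESeq2, also without a block, called *PGM1* and *SLC2A1* (2.23% of all genes). With the block 4 were called: *PGM1* and *PFKFB4* rose, and the glucose transporters *SLC2A1* and *SLC2A3* fell. Among all tested genes the share called was 1.24% in the fit without the block and 9.3% in the fit with it, so 4 of 36 (11.1%) lay near the background. The median log2 fold change over the 36 genes was 0.06 and that of all tested genes -0.01, and 23 of the 36 had a value above 0, as did 47.6% of all tested genes. The libraries of the groups did not overlap in 7 of the 36 genes (*PGK1*, *LDHA*, *RPIA* and *PGM1* above vehicle, *SLC2A1*, *SLC2A10* and *PFKFB2* below it), against 16.8% of all tested genes.

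The transporters came first in the pathway. *SLC2A1* (GLUT1), which brings in glucose at a basal rate in most cells, stood in experiments 1, 2 and 3 at 322, 298 and 319 CPM in vehicle and at 285, 252 and 259 CPM in RGZ. All RGZ libraries were below all vehicle libraries, a log2 fold change of -0.24 ± 0.05 (SE, adjusted p = 0.0063 by edgeR with the block, 0.151 without, and 0.0328 by DESeq2 without a block). *SLC2A3* stood at 33.3, 41.8 and 36.7 CPM in vehicle and at 25.7, 34.8 and 24.3 CPM in RGZ. The groups overlapped, yet the level was lower in RGZ in each of the 3 experiments, at -0.41 ± 0.09 on the log2 scale (adjusted p = 0.0079 with the block, 0.442 without). *SLC2A14*, a near-identical copy of *SLC2A3* whose reads could be mistaken for it, had at most 12 counts in any library. *SLC2A6*, *SLC2A10* and *SLC2A12* were not called and ranged from -0.43 to 0.08. The *SLC2A1* call was lost when vehicle of experiment 3 or RGZ of experiment 2 was left out (adjusted p = 0.0816 and 0.0568), and the *SLC2A3* call without vehicle or RGZ of experiment 3 (0.0718 and 0.0798).

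None of the 6 upper glycolysis enzymes was called, with log2 fold changes from -0.08 to 0.11. Of the PFKFB enzymes, *PFKFB4* stood at 46.9, 50.3 and 59.5 CPM in vehicle and at 56.1, 55.0 and 90.5 CPM in RGZ. The increase was uneven, by a factor of 1.197, 1.09 and 1.52 in experiments 1, 2 and 3, and the groups overlapped. The fitted log2 fold change was 0.34 ± 0.10 (adjusted p = 0.0352 with the block, 0.593 without), and the call was lost when any of 5 of the 12 libraries was left out (vehicle 1 and 3, RGZ 2 and 3, T0070907 1), down to 0.22 without RGZ of experiment 3 (adjusted p = 0.284). *UCN2*, named after its values were seen, shares 289 exonic bases with *PFKFB4* on the same strand, and it stood at 17.9, 8.81 and 23.1 CPM in vehicle and at 24.7, 16.4 and 42.7 CPM in RGZ (log2 fold change 0.74 ± 0.10, adjusted p = 6.85e-05 with the block, 0.605 without). How reads in the shared bases were assigned is not given in the sources used here, and the part of *UCN2* in the *PFKFB4* value was not tested. *PFKFB3* and *PFKFB2* were not called, at -0.11 and -0.14.

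In lower glycolysis 9 of 10 enzymes had a log2 fold change above 0, but all were small, from -0.22 in *ALDOC* to 0.25 in *ENO3*, and 0 were called. The abundant enzymes *GAPDH*, *ENO1* and *PKM* stood at 0.08, 0.10 and 0.09. *LDHA* did not overlap between the groups, with 1123, 1176 and 1094 CPM in vehicle and 1225, 1293 and 1252 CPM in RGZ. Its log2 fold change of 0.15 ± 0.05 missed the threshold (adjusted p = 0.0711 with the block, 0.299 without). *RPIA*, which forms ribose phosphate for nucleotides, did not overlap either, with 62.8, 63.3 and 64.7 CPM in vehicle and 77.3, 72.6 and 71.8 CPM in RGZ, a log2 fold change of 0.22 ± 0.07 (adjusted p = 0.0819 with the block, 0.427 without). Both were called with the block once the combination library of experiment 1 or 2 was left out, when 6 of the 36 genes (and 14.9% or 12.1% of all) were called for RGZ. The other pentose phosphate enzymes ranged from -0.05 to 0.09.

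*PGM1* stood in experiments 1, 2 and 3 at 75.4, 92.9 and 76.8 CPM in vehicle and at 115, 155 and 121 CPM in RGZ. Every RGZ library was above every vehicle library, and the ratio within an experiment was 1.52, 1.67 and 1.58. The log2 fold change was 0.67 ± 0.12 without the block (adjusted p = 0.0235) and 0.67 ± 0.07 with it (adjusted p = 3.39e-06). The call without the block was lost when vehicle of experiment 1 or 3 or RGZ of experiment 2 or 3 was left out (adjusted p = 0.111, 0.119, 0.0787 and 0.0505) and when only the 2 groups compared were fitted (0.0951). With the block it stood in all 12 leave-one-out fits, at an adjusted p of at most 0.000215. *ITGB3BP*, also named after its values were seen, shares 197 exonic bases with *PGM1* on the opposite strand. It stood at 40.2 ± 4.94 CPM in vehicle and 39.7 ± 3.75 CPM in RGZ (SD, n = 3). The related gene *PGM2* stood at 125 ± 10.3 CPM in vehicle and 122 ± 11.7 CPM in RGZ, with a log2 fold change of -0.03. *PGM1* went from 44.4% ± 4.14 of the RNA of *PGM1* and *PGM2* together, per kb, in vehicle to 56.5% ± 5.51 in RGZ.

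**Figure D2:**
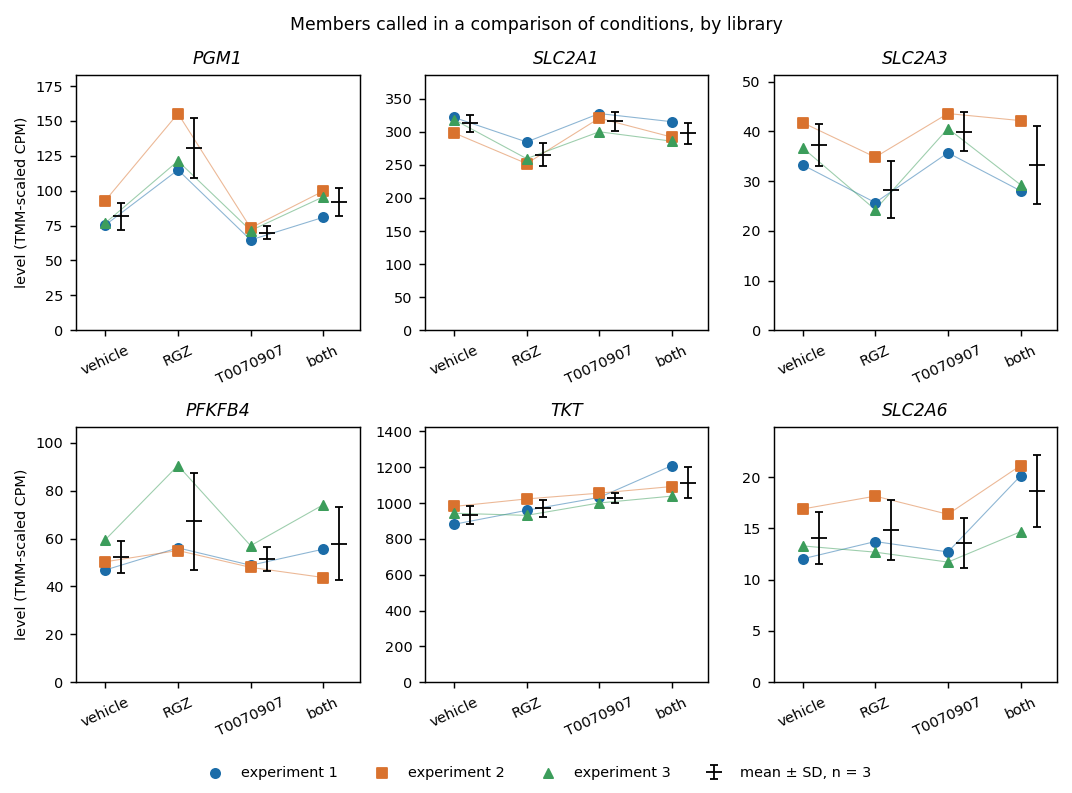
TMM-scaled CPM in each library of the 6 genes called in a comparison of conditions without or with the replicate block, by condition (both: the combination), with colours and lines for the 3 experiments and black marks for mean ± SD (n = 3). *PGM1* in RGZ lies at 115 to 155 CPM and in the other conditions at 64.7 to 99.7 CPM, while *PFKFB4* in RGZ is set apart mainly by experiment 3 at 90.5 CPM.

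The combination against RGZ asked which values differ when the antagonist is present with the agonist. *PGM1* was lower in the combination than in RGZ, and *TKT*, the transketolase of the pentose phosphate pathway, was higher. These 2 genes were called with the block and 0 without it, against 11.4% and 1.24% of all tested genes, and without the block 5 of the 36 and 13.1% of all genes had an unadjusted p under 0.05. DESeq2 without a block called *PGM1*. The comparison shares its RGZ libraries with that of RGZ against vehicle, and a deviation of those libraries enters both. The groups did not overlap in 7 of the 36 genes, *SLC2A1* and *TKT* higher and *HK1*, *PGK1*, *LDHA*, *SLC16A1* and *PGM1* lower, against 17.7% of all.

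*PGM1* stood in the combination at 80.9, 99.7 and 95.6 CPM, below each of the RGZ libraries. The log2 fold change was -0.50 ± 0.07 with the block (adjusted p = 7.86e-05) and -0.50 ± 0.12 without it (adjusted p = 0.0884). Without the combination library of experiment 1 it was -0.48 ± 0.07 (adjusted p = 6.04e-06), and it was called in all 12 leave-one-out fits with the block. *TKT* stood at 959, 1023 and 931 CPM in RGZ and at 1210, 1092 and 1039 CPM in the combination. The log2 fold change of 0.20 ± 0.06 (adjusted p = 0.0339 with the block, 0.256 without) rested largely on experiment 1, where the ratio was 1.26 against 1.07 and 1.12 in experiments 2 and 3. Without the combination library of experiment 1 it was 0.12 ± 0.05 (adjusted p = 0.149), and it was also lost without RGZ 1, 2 or 3 or T0070907 1 or 2 (adjusted p = 0.0547 to 0.167). *SLC2A1* stood at 315, 292 and 286 CPM in the combination, above all RGZ libraries, at a log2 fold change of 0.17 ± 0.05 (adjusted p = 0.0509 with the block), and 0.16 ± 0.06 without the combination library of experiment 1 (adjusted p = 0.0756). With that library left out, 3 genes were called, *PFKP*, *LDHA* and *PGM1* (9.1% of all genes). With that of experiment 2 left out, 8 were called (18.9% of all genes), among them *GAPDH*, *TPI1* and *TALDO1*.

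**Figure D3:**
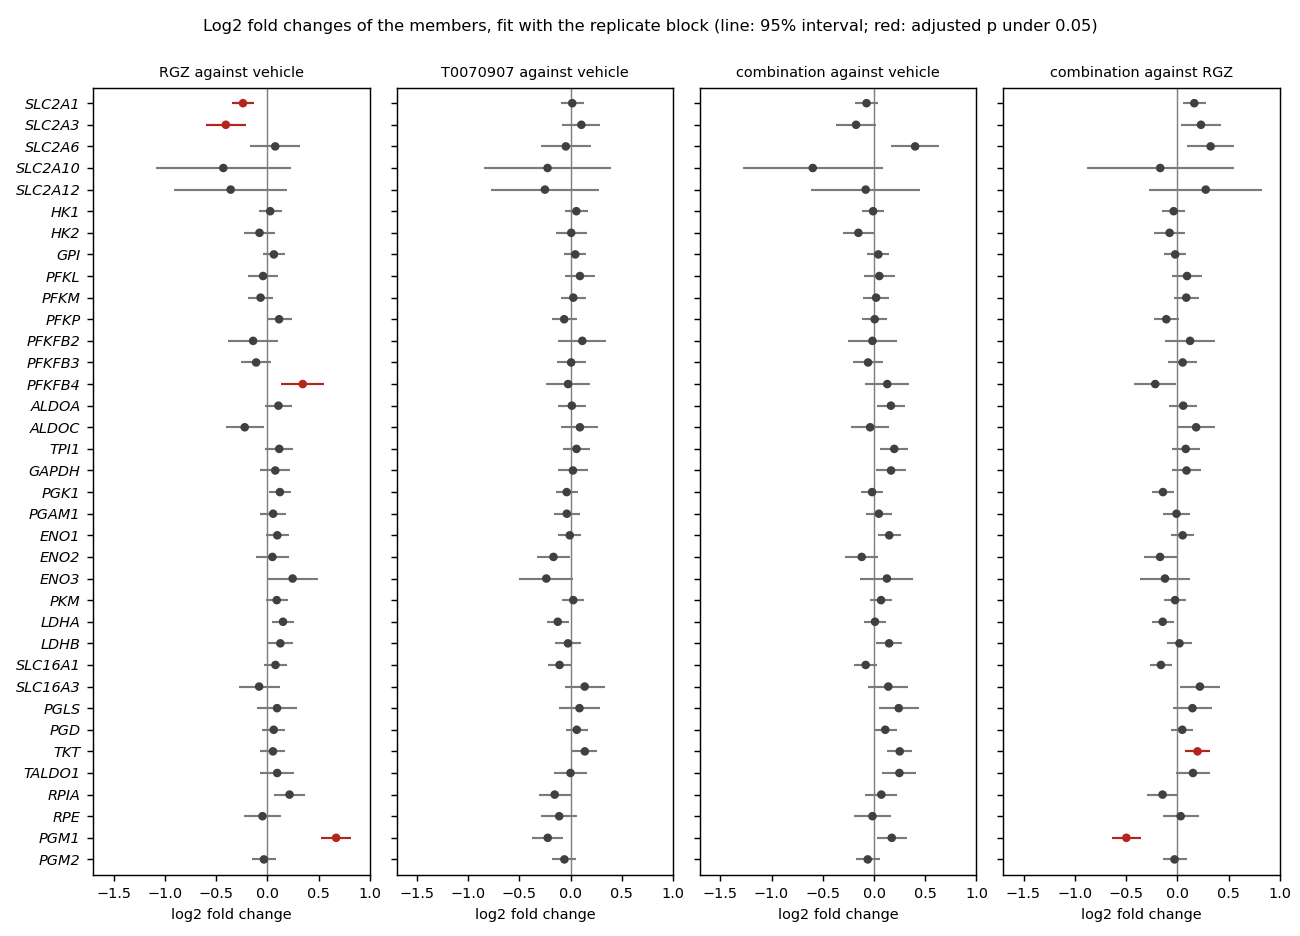
Log2 fold change of each of the 36 genes in 4 comparisons, from the fit with the replicate block. Points are estimates, lines 95% intervals, and red marks an adjusted p under 0.05 over all 13522 genes: 4 genes for RGZ against vehicle, 0 for T0070907 and 0 for the combination against vehicle, and 2 for the combination against RGZ.

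T0070907 against vehicle asked what the antagonist changes alone. None of the 36 genes was called without or with the block, against 0.0074% and 0.91% of all tested genes, and 1 and 4 of the 36 had an unadjusted p under 0.05, against 3.10% and 9.82% of all genes. The values ranged from -0.25 to 0.14 on the log2 scale with a median of 0.00. The smallest p-values were those of *PGM1*, *LDHA* and *TKT*, and in all 3 genes the groups did not overlap. *PGM1* stood at 64.7, 73.3 and 71.4 CPM in T0070907, below vehicle at a log2 fold change of -0.22 ± 0.07 (adjusted p = 0.213 by edgeR with the block). *LDHA* stood at 1021, 1034 and 1053 CPM, at -0.13 ± 0.05 (adjusted p = 0.383 with the block). *TKT* stood at 881, 981 and 943 CPM in vehicle and at 1031, 1055 and 1001 CPM in T0070907, at 0.14 ± 0.06 (adjusted p = 0.423 with the block). In total 5 of the 36 did not overlap, against 7.67% of all genes, the others being *TPI1* above and *RPIA* below vehicle.

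The combination against vehicle asked what remains when both compounds are present. None of the 36 and none of all tested genes was called by edgeR (0%) without or with the block, none by DESeq2 and none by limma-voom, although 4 of the 36 without and 11 with the block had an unadjusted p under 0.05, against 10.6% and 21.2% of all genes. Those with the smallest p-values were *TKT*, *SLC2A6* and *TALDO1*. *TKT* was at 0.25 ± 0.06 on the log2 scale (adjusted p = 0.0989 with the block) and did not overlap with vehicle. *SLC2A6*, a lysosomal member of the transporter family, was at 0.40 ± 0.11 (adjusted p = 0.103 with the block), with 12.04, 16.9 and 13.3 CPM in vehicle and 20.1, 21.1 and 14.7 CPM in the combination. *TALDO1* was at 0.25 ± 0.08 (adjusted p = 0.11 with the block), with 121, 145 and 134 CPM in vehicle and 172, 140 and 164 CPM in the combination. The ratio for *TALDO1* within the experiments was 1.42, 0.961 and 1.23, so that its direction was not shared. *PGM1* was at 0.17 ± 0.07 (adjusted p = 0.171 with the block). The values without the combination library of experiment 1 were 0.17 ± 0.05 for *TKT* (adjusted p = 0.216), 0.28 ± 0.12 for *SLC2A6* (0.444), 0.15 ± 0.07 for *TALDO1* (0.464) and 0.19 ± 0.07 for *PGM1* (0.377). Single libraries decided these counts. Without the combination library of experiment 2, 9 of the 36 were called with the block (19.0% of all genes): *SLC2A6*, *ALDOA*, *TPI1*, *GAPDH*, *ENO1*, *LDHB*, *PGLS*, *TKT* and *TALDO1*. Without the combination library of experiment 1, 0 were called (0.051% of all genes), and without vehicle of experiment 2, 3 were called, *ENO1*, *TKT* and *TALDO1* (6.38% of all genes).

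The combination against T0070907 asked what RGZ adds in the presence of the antagonist. *PGM1* and *SLC2A6* were higher in the combination, the 2 genes called with the block, and 0 were called without it, against 8.76% and 0.037% of all tested genes. Without the block 7 of the 36 and 15.0% of all genes had an unadjusted p under 0.05, and DESeq2 called 0. *PGM1* differed by 0.40 ± 0.07 on the log2 scale (adjusted p = 0.00353 with the block, 0.261 without), and each combination library was above each T0070907 library. Its ratio was 1.25, 1.36 and 1.34 in the 3 experiments, and without the combination library of experiment 1 the value was 0.42 ± 0.07 (adjusted p = 0.000212). The call was lost without T0070907 of experiment 2 (adjusted p = 0.0549) or the combination library of experiment 3 (0.0627). *SLC2A6* stood at 12.7, 16.4 and 11.7 CPM in T0070907 and differed by 0.45 ± 0.11 (adjusted p = 0.0212 with the block, 0.313 without). Without the combination library of experiment 1 it was 0.33 ± 0.11 (adjusted p = 0.0909), and the call was also lost without T0070907 1 or 2 or the combination library of experiment 3 (adjusted p = 0.0604 to 0.113). *TALDO1* had the third smallest p-value, at 0.25 ± 0.08 (adjusted p = 0.0528 with the block), and 0.15 ± 0.07 without the combination library of experiment 1 (adjusted p = 0.193). The groups did not overlap in 6 of the 36, against 18.7% of all: *ENO1*, *ENO3*, *LDHA*, *LDHB* and *PGM1* higher, and *HK1* lower. Leaving out the combination library of experiment 2 brought the count with the block to 15 of 36 (24.5% of all genes), that of experiment 1 to 1 (4.67%) and that of experiment 3 to 0 (0.775%).

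The interaction tests whether the response to RGZ differs in the presence of T0070907. None of the 36 genes was called without or with the block, against 0% and 0.281% of all tested genes, with 0 and 2 of the 36 at an unadjusted p under 0.05, against 3.00% and 9.79% of all genes. *PGM1* had the smallest p-value, with an interaction of -0.27 ± 0.10 on the log2 scale (95% interval -0.48 to -0.07, adjusted p = 0.38 with the block), followed by *SLC2A6* at 0.37 ± 0.16 (adjusted p = 0.46) and *SLC2A1* at 0.15 ± 0.07 (adjusted p = 0.524). These values were, in the absence of the combination library of experiment 1, -0.25 ± 0.09 (adjusted p = 0.332), 0.25 ± 0.16 (0.69) and 0.14 ± 0.07 (0.603). The response of *PGM1* to RGZ was 0.67 in the absence and 0.40 in the presence of T0070907, and the difference of these responses missed the threshold.

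The genes that were called in no comparison of conditions included most of the core pathway. *HK1* stood at 181 ± 8.24 CPM in vehicle, 184 ± 3.29 in RGZ, 188 ± 6.12 in T0070907 and 179 ± 1.04 in the combination (SD, n = 3). *GPI*, which turns glucose phosphate into fructose phosphate, stood at 625 ± 23.1, 654 ± 48.7, 645 ± 30.2 and 644 ± 34.6 CPM in the same order. *PFKM* lay between 112 and 119 CPM and *PGAM1*, the phosphoglycerate mutase, between 113 and 121 CPM over the 4 condition means. The 95% interval of the RGZ response of *HK1*, *GPI* and *PGAM1* was -0.08 to 0.14, -0.04 to 0.17 and -0.07 to 0.18 on the log2 scale with the block. *PGLS*, the lactonase of the pentose phosphate pathway, had means of 68.5 ± 9.85 CPM in vehicle and 80.7 ± 7.60 CPM in the combination (log2 fold change 0.24 ± 0.09, adjusted p = 0.154 with the block, and 0.11 ± 0.08 without the combination library of experiment 1). Larger differences that missed the threshold were those of *SLC2A10*, with 1.64 ± 0.436 CPM in vehicle and 1.09 ± 0.253 CPM in the combination (-0.60 ± 0.32, adjusted p = 0.295 with the block, and -0.84 ± 0.40 without that library), and of *ENO3*, the muscle enolase, with 6.82, 8.41 and 9.05 CPM in T0070907 and 9.51, 9.99 and 11.8 CPM in the combination (0.36 ± 0.12, adjusted p = 0.0661 with the block, and 0.29 ± 0.14 without that library). The share of *LDHA* in lactate dehydrogenase RNA, per kb, was 35.2% ± 0.781 in vehicle, 35.7% ± 0.687 in RGZ, 33.7% ± 0.645 in T0070907 and 33.1% ± 0.370 in the combination. *SLC16A1*, the main lactate transporter, stood at 222 ± 17.2 CPM in vehicle, 234 ± 11.1 in RGZ, 206 ± 8.82 in T0070907 and 210 ± 5.53 in the combination, and was below RGZ in each combination library (log2 fold change -0.16 ± 0.05, adjusted p = 0.0575 with the block, and -0.14 ± 0.05 without the combination library of experiment 1).

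As among all tested genes, more of these genes were called between experiments than between any pair of conditions. The test between experiments takes all 3 together, whereas the comparisons of conditions are pairwise. With condition in the fit, 12 of the 36 (33.3%) differed between the 3 experiments, near the 30.5% of all tested genes. They were *SLC2A3*, *SLC2A6*, *SLC2A12*, *PFKP*, *PFKFB3*, *PFKFB4*, *ALDOC*, *ENO2*, *ENO3*, *SLC16A3*, *PGM1* and *PGM2*. On the opposite strand, *SLC2A12* shares 1736 exonic bases with *TBPL1*, *SLC16A3* shares 482 with *CSNK1D*, and *ENO3* shares 111 with *PFN1*. *TBPL1* stood at 31.1 and *CSNK1D* at 163 CPM in vehicle, against 3.01 for *SLC2A12* and 34.0 for *SLC16A3*. The part of such reads in the values of these genes was not tested. The lactate exporter *SLC16A3* stood at 30.3 ± 5.19 CPM in experiment 1, 48.8 ± 2.66 CPM in experiment 2 and 26.9 ± 0.776 CPM in experiment 3 (SD, n = 4 conditions), adjusted p = 1.77e-07 by edgeR. *PFKFB3*, the PFKFB enzyme of proliferating cells, went the other way, with 68.5 ± 5.50 CPM in experiment 2 and 107 ± 5.03 CPM in experiment 3 (adjusted p = 5.16e-07). *ALDOC* and *ENO2*, the isoenzymes typical of brain, were highest in experiment 2, at 40.8 ± 1.15 and 73.4 ± 6.12 CPM. In experiment 1 they stood at 26.8 ± 3.79 and 57.0 ± 4.53 CPM. Of the abundant enzymes, *TPI1*, *LDHA*, *ENO1*, *PKM* and *GAPDH* spread by 0.01 to 0.05 on the log2 scale between the highest and the lowest experiment, and *ALDOA* and *PGK1* by 0.13 and 0.12. The median spread was 0.15 over the 36 genes and 0.19 over all tested genes. The spread of a gene exceeded the size of its RGZ response in 24 of the 36 (66.7%), against 70.6% of all tested genes. The spread is a range over 3 experiments and the response a single difference, so they are unlike measures. Without the combination library of experiment 1, 20 of the 36 (and 42.9% of all genes) differed between experiments.

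**Figure D4:**
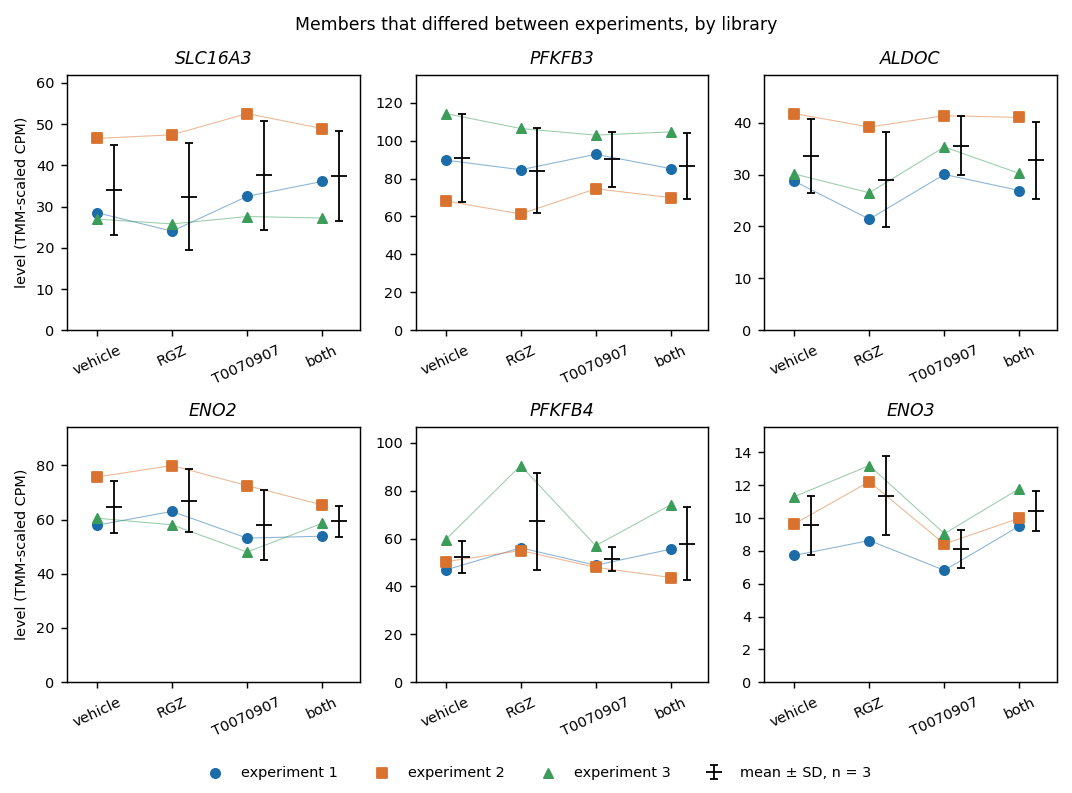
TMM-scaled CPM in each library of 6 of the 12 genes that differed between experiments, by condition (both: the combination), with colours and lines for the 3 experiments and black marks for mean ± SD (n = 3). *SLC16A3* and *ALDOC* are highest in experiment 2 in each condition, and *PFKFB3* is highest in experiment 3.

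Of 52 other genes of these pathways, 33 passed the filter. RGZ against vehicle called 1 of them without the block and 4 with it, against 1.24% and 9.3% of all tested genes, so that the count with the block lay near the background. *SLC2A13*, a myo-inositol transporter of the SLC2A family, rose from 12.5, 7.50 and 9.53 CPM in vehicle to 19.4, 17.8 and 21.5 CPM in RGZ, a log2 fold change of 0.99 ± 0.17 (adjusted p = 0.0186 without the block). In the combination it stood at 8.03, 9.15 and 10.4 CPM, -1.09 ± 0.17 against RGZ (adjusted p = 0.0108 without the block), so the RGZ libraries lay above those of both other conditions. *PYGB*, a glycogen phosphorylase, and *MINPP1*, an inositol polyphosphate phosphatase that also acts on a glycolytic bisphosphate, rose with the block by 0.26 ± 0.05 (adjusted p = 0.00122, 0.724 without the block) and 0.24 ± 0.07 (adjusted p = 0.0266, 0.158 without). *H6PD*, which feeds sugar phosphate into the pentose phosphate route of the endoplasmic reticulum, fell by 0.31 on the log2 scale (SE 0.09, adjusted p = 0.0287 with the block, 0.369 without). Against RGZ, the combination was lower with the block in *SLC2A13*, *PYGB* and *MINPP1* and higher in *HKDC1*, a hexokinase-like gene at 0.72 ± 0.16 (adjusted p = 0.00499, 0.483 without the block), that is 4 of the 33 against 11.4% of all tested genes. Without the block *PYGB* and *MINPP1* were not called in this comparison either (adjusted p = 0.725 and 0.18). These 4 genes, when the combination library of experiment 1 was left out, were still called with the block (*SLC2A13* -0.96 ± 0.14, *PYGB* -0.20 ± 0.05, *MINPP1* -0.23 ± 0.07 and *HKDC1* 0.72 ± 0.18, adjusted p = 9.84e-06, 0.00794, 0.0457 and 0.00565), and the call of *SLC2A13* without the block was lost (adjusted p = 0.0649). In the 3 other comparisons of conditions and in the interaction 0 of the 33 were called without or with the block. With the block, the share of all tested genes was 0.91% for T0070907 and 0% for the combination against vehicle. It was 8.76% for the combination against T0070907 and 0.281% for the interaction.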

How the data were processed

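RNA of A375 cells under 4 conditions was sequenced in 3 independent experiments (TruSeq libraries, HiSeq 2000). The authors deposited raw counts per gene in 12 columns, without normalization, and the submitters' processing notes name the genome build hg19. The aligner, the counter, its annotation and its handling of strand are not given in the sources used here. Gene symbols were matched for 23538 of 23705 identifiers. The analysis used edgeR 4.0.16 under R 4.3.3 (TMM, filterByExpr, quasi-likelihood fit of all 12 libraries by condition, Benjamini-Hochberg adjustment). Standard errors of log2 fold changes are approximate (size divided by the square root of F). Floors cover counting error only.

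The titles number the experiments, and this pairs the libraries. Deviations from the condition mean correlated at 0.554 on average in the 18 pairs of the same experiment and at -0.270 between experiments. The deviations within a condition cancel over the experiments, so the second value follows largely from the first. The fit with the experiment as replicate block had a common dispersion of 0.00333, against 0.0193 without it. Its values are printed beside those of the fit without it where the call changes.

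The genes and lists were chosen with earlier results of these data known. All 36 genes were accounted for. Named with a fold change were those called without or with the block, or otherwise the 3 with the smallest p-value with the block. Any other gene named with a fold change or an adjusted p, and the genes with shared exons, were added after their values were seen. Exon overlaps and transcript lengths came from GENCODE 29 and start sites from RefSeq in GRCh38.p14. Alternatives were DESeq2 1.42.0, its size factors, limma-voom 3.58.1, other filters on low counts, thinned libraries, only the groups compared, a threshold of 0.01, and leaving out each library. Leaving out libraries with the block and the protein-coding lengths were chosen after seeing the data. The comparison of RGZ against vehicle was first checked on counts simulated with known fold changes, in edgeR, limma-voom and DESeq2. The other comparisons, the interaction and the test between experiments were not checked in this way.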

Additional observations from a re-analysis of the deposited data

How the results depend on the processing

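In edgeR without the replicate block, 1 of the 36 genes was called for RGZ against vehicle and 0 in every other comparison of conditions. The number called for RGZ against vehicle (with the share of all genes in parentheses) was 4 with the replicate block in edgeR (9.3%), 4 in limma-voom with the replicate block (9.02%) and 2 in DESeq2 (2.23%). It was 0 when only the groups compared were fitted (0.529%) and 0 at an adjusted p under 0.01 (0.355%). When each library was left out, it was 0 to 1 without the block (0.328 to 1.23%) and 1 to 6 with it (5.23 to 14.9%). For the combination against RGZ it was 2 with the replicate block in edgeR (11.4%), 3 in limma-voom with the replicate block (10.8%) and 1 in DESeq2 (2.35%), and 1 to 8 in the leave-one-out fits with the block (6.25 to 18.9%). For the combination against T0070907 it was 2 with the replicate block in both tools (8.76 and 7.46%) and 0 to 15 in the leave-one-out fits with it (0.775 to 24.5%), and for the combination against vehicle 0 to 9 (0 to 19%). The differences between experiments were called in 11 to 20 of the 36 when each library was left out (22.8 to 42.9%). The highest counts came without the combination library of experiment 2, for RGZ against vehicle also without that of experiment 1, and for the experiments without that of experiment 1, and the cause was not tested. T0070907 against vehicle and the interaction stayed at 0 in all of these fits, against 0 to 2.4% and 0 to 1.09% of all genes. Alternatives were run for the fold changes of the genes called, or with the smallest p-values, in each comparison, and none of these changed direction. At 8 to 18 counts per library, the 95% interval of *SLC2A10* for RGZ against vehicle spanned -1.09 to 0.23 on the log2 scale.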
